A study of Mus musculus with 20 samples.

Results

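The potassium channel genes examined here are all autosomal protein-coding genes whose symbol starts with Kcn in the mouse annotation for build mm9. The rule found 94 gene entries with 92 symbols among 21418 autosomal protein-coding entries; Kcnb2 and Kcnh8 each have 2 entries, and Kcnd1 and Kcne1l lie on the X chromosome and were left out. Of the 94 entries, 41 encode voltage-gated subunits (Kcna, Kcnb, Kcnc, Kcnd, Kcnf, Kcng, Kcnh, Kcnq, Kcns and Kcnv), 16 auxiliary or regulatory proteins (Kcnab, Kcne, Kcnip, Kcnmb and Kcnrg), 15 inward rectifiers (Kcnj), 14 tandem-pore channels (Kcnk) and 8 channels gated by intracellular ions or pH (Kcnma, Kcnn, Kcnt and Kcnu). The members were chosen by name, without regard to any measured value.

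The study profiled histone marks and transcription factor binding in mouse embryos at embryonic day 13.5 by chromatin immunoprecipitation and sequencing (ChIP-seq). The 4 marks H3K27ac, H3K4me1, H3K4me3 and H3K27me3, were mapped in nuclei from the medial ganglionic eminence (MGE) of C57BL/6 embryos that were either wild type or Nkx2-1cKO, a conditional mutant of the transcription factor gene Nkx2-1 (called the mutant from here on). NKX2-1 and LHX6, a pair of homeodomain factors of the MGE lineage, were mapped with polyclonal antibodies in dissociated basal ganglia of wild-type CD-1 embryos. Each antibody and genotype has 1 library with a peak list, 10 in all; another 10 input and IgG samples were not analysed here. The labels name neither the Cre driver nor the cells that carried the deletion, nor the number of embryos per library, and the factor maps and the mark maps differ in strain and in dissection. The deletion itself was not checked here, since peak lists hold no expression value.

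Potassium channels let potassium leave a neuron, set its resting potential and end its action potentials, and the mixture of subunits that a neuron expresses shapes its firing. The MGE is the embryonic source of many cortical and striatal interneurons, among them the fast-spiking cells that later depend on Kcnc channels, and most channel genes reach high expression only after these cells have left the cell cycle. In progenitors and young neurons, genes held for later use often carry H3K4me3, a mark of promoters, together with H3K27me3, the mark laid down by Polycomb repressive complexes; H3K27ac marks active promoters and enhancers, and H3K4me1 marks enhancers and the flanks of promoters.

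The 10 libraries held 26.8 to 89.1 M ChIP tags after duplicate removal. The mutant lists covered more of the genome than the wild-type lists for every mark: H3K27ac 57.0 Mb in wild type and 63.7 Mb in the mutant, H3K4me1 76.5 and 83.8 Mb, H3K4me3 47.0 and 57.4 Mb, and H3K27me3 25.7 and 33.7 Mb. All 7 MGE marker genes examined had promoter H3K27ac in both genotypes, and their summed H3K27ac coverage was 99.3 kb in wild type against 70.1 kb in the mutant. The 6 markers of the lateral ganglionic eminence (LGE), the neighbouring source of striatal neurons, also all had promoter H3K27ac in both, with 69.0 kb and 137 kb. Pallial markers held it at 1 of 5 promoters, with Emx1 and Eomes without any H3K27ac (summed coverage 7.15 and 11.7 kb). Microglial markers held it at 2 of 4 promoters in wild type and 1 in the mutant, with 4.78 and 5.10 kb in all, and blood markers at 1 of 3 in both, with 3.36 and 2.90 kb. Endothelial and striated muscle markers held it at none of their 4 promoters each, with 2.62 and 2.92 kb and with 1.53 and 2.30 kb in their windows. Within these lists Csf1r and Cx3cr1, Cldn5 and Cdh5, Hbb-b1 and Gata1, and Actc1 and Myod1 were at 0 in both genotypes. The shift of the LGE and MGE marker sums runs alongside every H3K27ac difference described here, and its part in them was not tested. In whole tissue, fewer cells carrying a mark and less of the mark per cell cannot be told apart.

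At their promoters, potassium channel genes mostly carried both marks. A promoter was taken as the 2.5 kb to each side of any annotated transcription start site (TSS). In wild type, H3K4me3 and H3K27me3 were both present at 61 of the 94 (64.9%, exact Clopper-Pearson 95% interval 54.4 to 74.5%), against a background of 20.3% over all autosomal protein-coding genes. H3K4me3 alone, the commonest state in the background at 45.6%, was found at 9 members (9.57%, 4.47 to 17.4%); with regions of −log10 p of at least 10 alone it was found at 17 (background 48.8%). H3K27me3 alone was found at 3 members (3.19%, 0.663 to 9.04%, background 1.1%) and neither mark at 21 (22.3%, 14.4 to 32.1%, background 33%). In the mutant the counts were 63 with both marks (67.0%, 56.6 to 76.4%, background 23.4%), 8 with H3K4me3 alone (background 43.7%; 14 and 46.8% with the stricter threshold), 2 with H3K27me3 alone (background 0.943%) and 21 with neither (background 32%). The intervals cover the counting of genes only. The 2 marks overlapped each other at 60 of the 61 wild-type promoters that held both, by a median of 1005 bases, and at 62 of 63 in the mutant, by 1382 bases. Bulk ChIP does not show whether both marks sat on the same chromosome in the same cell.

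**Figure D1:**
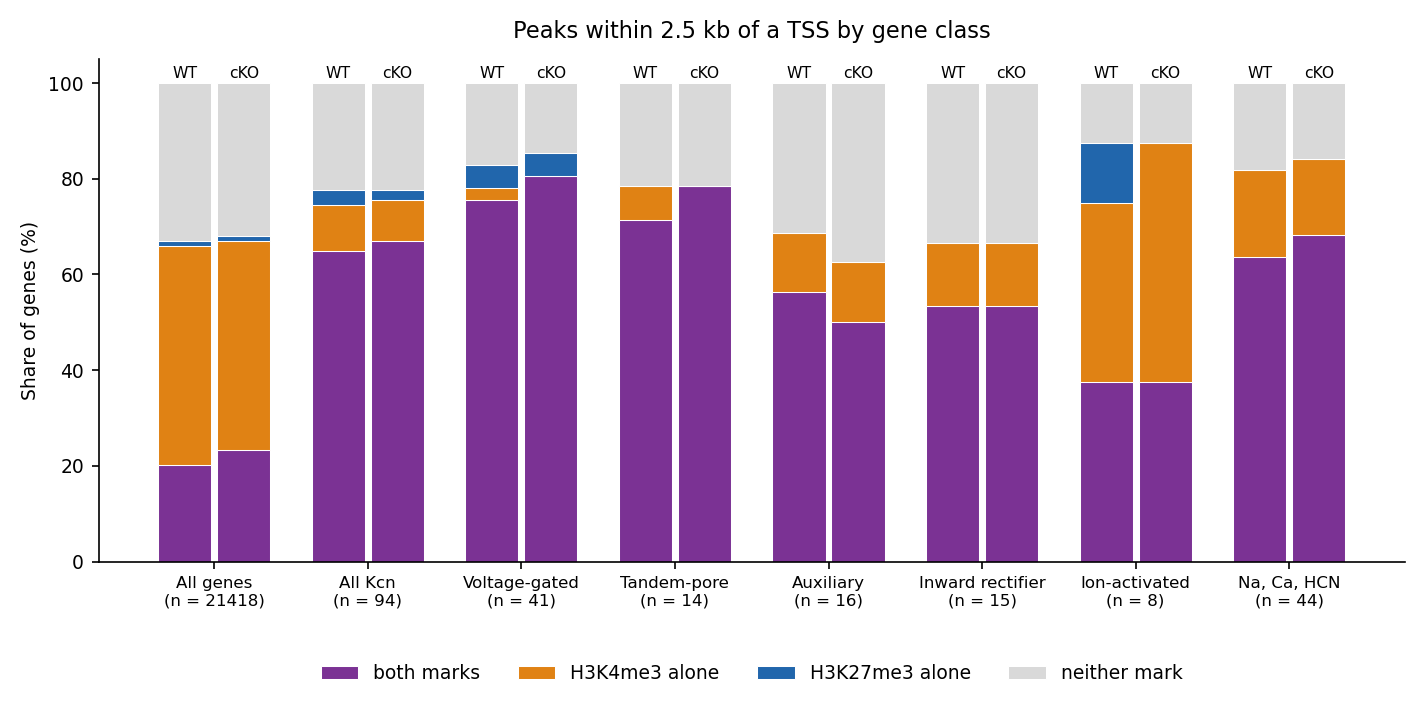
Percent of genes (vertical axis) in each of the 4 promoter states, as stacked bars for wild type and Nkx2-1cKO, for all 21418 genes, all 94 Kcn genes, their 5 classes and 44 other voltage-gated channel genes. The state with both marks takes up 64.9% of Kcn genes and 20.3% of all genes in wild type.

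By channel class, the voltage-gated and tandem-pore genes held both marks most often. Among voltage-gated subunits the count was 31 of 41 (75.6%) in wild type and 33 of 41 (80.5%) in the mutant, and among tandem-pore channels 10 and 11 of 14. It was 9 and 8 of 16 for auxiliary proteins, 8 and 8 of 15 for inward rectifiers, and 3 and 3 of 8 for the ion-activated channels. With classes this small the intervals overlap; for the ion-activated class the wild-type interval runs from 8.52 to 75.5%. Sodium, calcium and HCN channel genes, the other voltage-gated channels of neurons, resembled the potassium channels, with both marks at 28 of 44 in wild type (63.6%, 47.8 to 77.6%) and 30 of 44 in the mutant (68.2%). The plot of promoter states shows these classes side by side.

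The members without both marks in wild type were as follows. Those with neither mark in wild type are Kcna10, Kcng4, Kcnv2 and both entries of Kcnb2 and of Kcnh8 among the voltage-gated genes; Kcnj1, the renal outer medullary channel, Kcnj13, Kcnj14, Kcnj15 and Kcnj16 among the inward rectifiers; Kcnk7, Kcnk16 and Kcnk18 among the tandem-pore genes; Kcne1, which joins Kcnq1 in the cardiac slow delayed rectifier, Kcne4, Kcnmb1, the smooth-muscle beta subunit of the large-conductance calcium-activated (BK) channel, Kcnmb3 and Kcnrg; and Kcnn4, the intermediate-conductance channel of blood cells. H3K4me3 alone was found at Kcnab2, Kcnh7, Kcnip2, Kcnj10, the glial inward rectifier, Kcnj11, Kcnk10, Kcnn1, Kcnt2 and Kcnu1. For Kcnab2 and Kcnu1 another gene's TSS lies within 2.5 kb (Nphp4 and Ash2l), as it does for Kcnab3, so a region there cannot be assigned to one gene. H3K27me3 alone was found at Kcnh6, Kcnma1 and Kcnq1. In all, 8 members had no region of any of the 4 marks in their window in either genotype.

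Promoters with neither mark were the poorest in CpG. The ratio of observed to expected CpG in the 500 bases to each side of a TSS (the highest TSS of a gene) had a median of 0.710 at members with both marks, close to the 0.711 of all genes with both marks, and of 0.227 at members with neither, against 0.188 for all such genes. At the 9 members with H3K4me3 alone it was 0.581, below the 0.764 of all genes in that state. These are descriptions of a few annotated starts, and the annotation matters. RefSeq promoter sequences, matched exactly to the mm9 genome for 68 of the 92 symbols, placed a start more than 2.5 kb from every annotated TSS for 7 members (Kcnab1, Kcnh8, Kcnip1, Kcnj16, Kcnk2, Kcnma1 and Kcnn1). With those starts added, the count with both marks became 65 in wild type and 67 in the mutant; Kcnma1, Kcnn1 and both Kcnh8 entries moved into that state in both genotypes.

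The members with both marks differed in H3K27ac. In wild type 35 of the 61 (57.4%) also held H3K27ac at the promoter, against 68.5% of all genes with both marks. Those 35 had a median of 1.399 kb of H3K27me3 in their window (0.302 to 6.38 kb) and 2.92 kb of H3K4me3. The other 26 had a median of 5.19 kb of H3K27me3 (0.464 to 11.4 kb) and 2.27 kb of H3K4me3. The ranges overlap widely. The 26 include Kcna5 and Kcna7, Kcnc4, the modifier subunits Kcng1, Kcng2, Kcng3, Kcns1 and Kcns3, the inward rectifiers Kcnj4, Kcnj5, Kcnj8 and Kcnj12, and 7 tandem-pore genes, among them the acid-sensitive channels Kcnk3 and Kcnk9. In the mutant, 42 of 63 held H3K27ac, with a median H3K27me3 coverage of 2.61 kb, and 21 did not, with 6.57 kb.

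Promoter states were largely shared between the genotypes: 60 members held both marks in both, and 6 members (6.38%) differed, beside a background of 5.39%. Kcnh7, an ether-a-go-go-related channel, had H3K4me3 alone in wild type and gained H3K27me3 regions of 753 and 530 bases in the mutant, with the authors' fold enrichments over input of 5.94 and 3.73. Kcnk10, a mechanically and thermally gated tandem-pore channel, went the same way with regions of 250 and 322 bases. Kcnh6 had H3K27me3 alone in wild type and a 312-base H3K4me3 region (fold 5.67) as well in the mutant. Kcng4, a silent modifier subunit, passed from neither mark to a 259-base H3K27me3 region (fold 3.59). Kcne2 passed from both marks to neither, having held 299 bases of H3K4me3 (fold 3.91) and 543 bases of H3K27me3 (fold 3.24) in wild type. Kcnma1 passed from H3K27me3 alone to H3K4me3 alone through regions at different annotated starts, a case described below with its map. Which members differ depended on the threshold: with regions of −log10 p of at least 10 the members were Kcnh2, Kcnh5, Kcnh6, Kcnh7, Kcnma1 and Kcnn3, again 6 (background 5.41%).

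For coverage, the bases under regions of a mark were summed from 10 kb before the first TSS of a gene to 10 kb after its last, a window of up to 1062 kb (median 20.2 kb). A member was called changed where the genotypes differed by at least 1.5-fold and at least 0.5 kb; with 1 library a group this is a limit of size with no replicate check. Coverage of H3K27ac was higher in the mutant at 11 members (background 5.16%) and lower at 6 (background 1.9%). H3K4me1 was higher at 8 (background 3.83%) and lower at 6 (background 2.65%). H3K4me3 was higher at 6 (background 4.02%) and lower at 1 (background 0.145%). H3K27me3 was higher at 13 (background 8.05%) and lower at 2 (background 0.434%). In all, 37 members (39.4%) changed in at least 1 mark (background 20.7%), 11 (11.7%) in at least 2 (background 4.42%), and 57 in none. Window length was not matched between members and all genes. Joined where they overlap, the windows span 6304 kb for the 94 members and 743142 kb for the 21418 genes. Kcnip4, with the longest window, is among the called members. The part of window length in these shares was not tested.

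As a share of the 94 members, the H3K27ac calls come to 11.7% higher and 6.38% lower. Members reached 0.5 kb of coverage more often than the average gene for H3K4me1, H3K4me3 and H3K27me3, which bears on such shares. For H3K27ac they did not (59 of 94 members, 13790 of 21418 genes). Among genes with at least 0.5 kb of H3K27ac coverage in 1 of the genotypes, 18.6% of 59 members were higher and 10.2% lower, against 8.01% and 2.94% of all such genes. For H3K27me3 the order turns: 19.1% of 68 such members were higher, against 29.5% of 5839 genes. The median difference over all 94 was 0 kb for H3K27ac, -0.011 kb for H3K4me1, 0.21 kb for H3K4me3 (all genes 0.124 kb) and 0.158 kb for H3K27me3 (all genes 0 kb). H3K4me3 coverage was longer in the mutant at 72 members, shorter at 7 and equal at 15, beside mutant lists that are longer throughout the genome.

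The balance of higher and lower calls was different with lists of equal length. The longer list was the mutant's for every mark, so shortening it can only remove higher calls or add lower ones. The cause of the balance was not tested. When the longer list of each pair was shortened by −log10 p to the covered length of the other, the counts of higher and lower members became 8 and 9 for H3K27ac (background 3.34% and 3.26%), 3 and 12 for H3K4me1 (2.31% and 5.71%), 2 and 4 for H3K4me3 (0.537% and 1.71%), and 6 and 10 for H3K27me3 (2.11% and 3.39%). All 8 H3K27ac members called higher there, Kcna2, Kcna4, Kcna6, Kcnab1, Kcnc1, Kcnh1, Kcnip4 and Kcnma1, were among the 11, and all 6 called lower before were among the 9. Larger limits, 2-fold and 1 kb, left 6 higher and 2 lower members for H3K27ac (background 1.54% and 0.49%), 1 and 3 for H3K4me1 (0.509% and 0.42%), 2 and 0 for H3K4me3 (0.719% and 0.0327%), and 4 and 1 for H3K27me3 (2.67% and 0.182%).

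**Figure D2:**
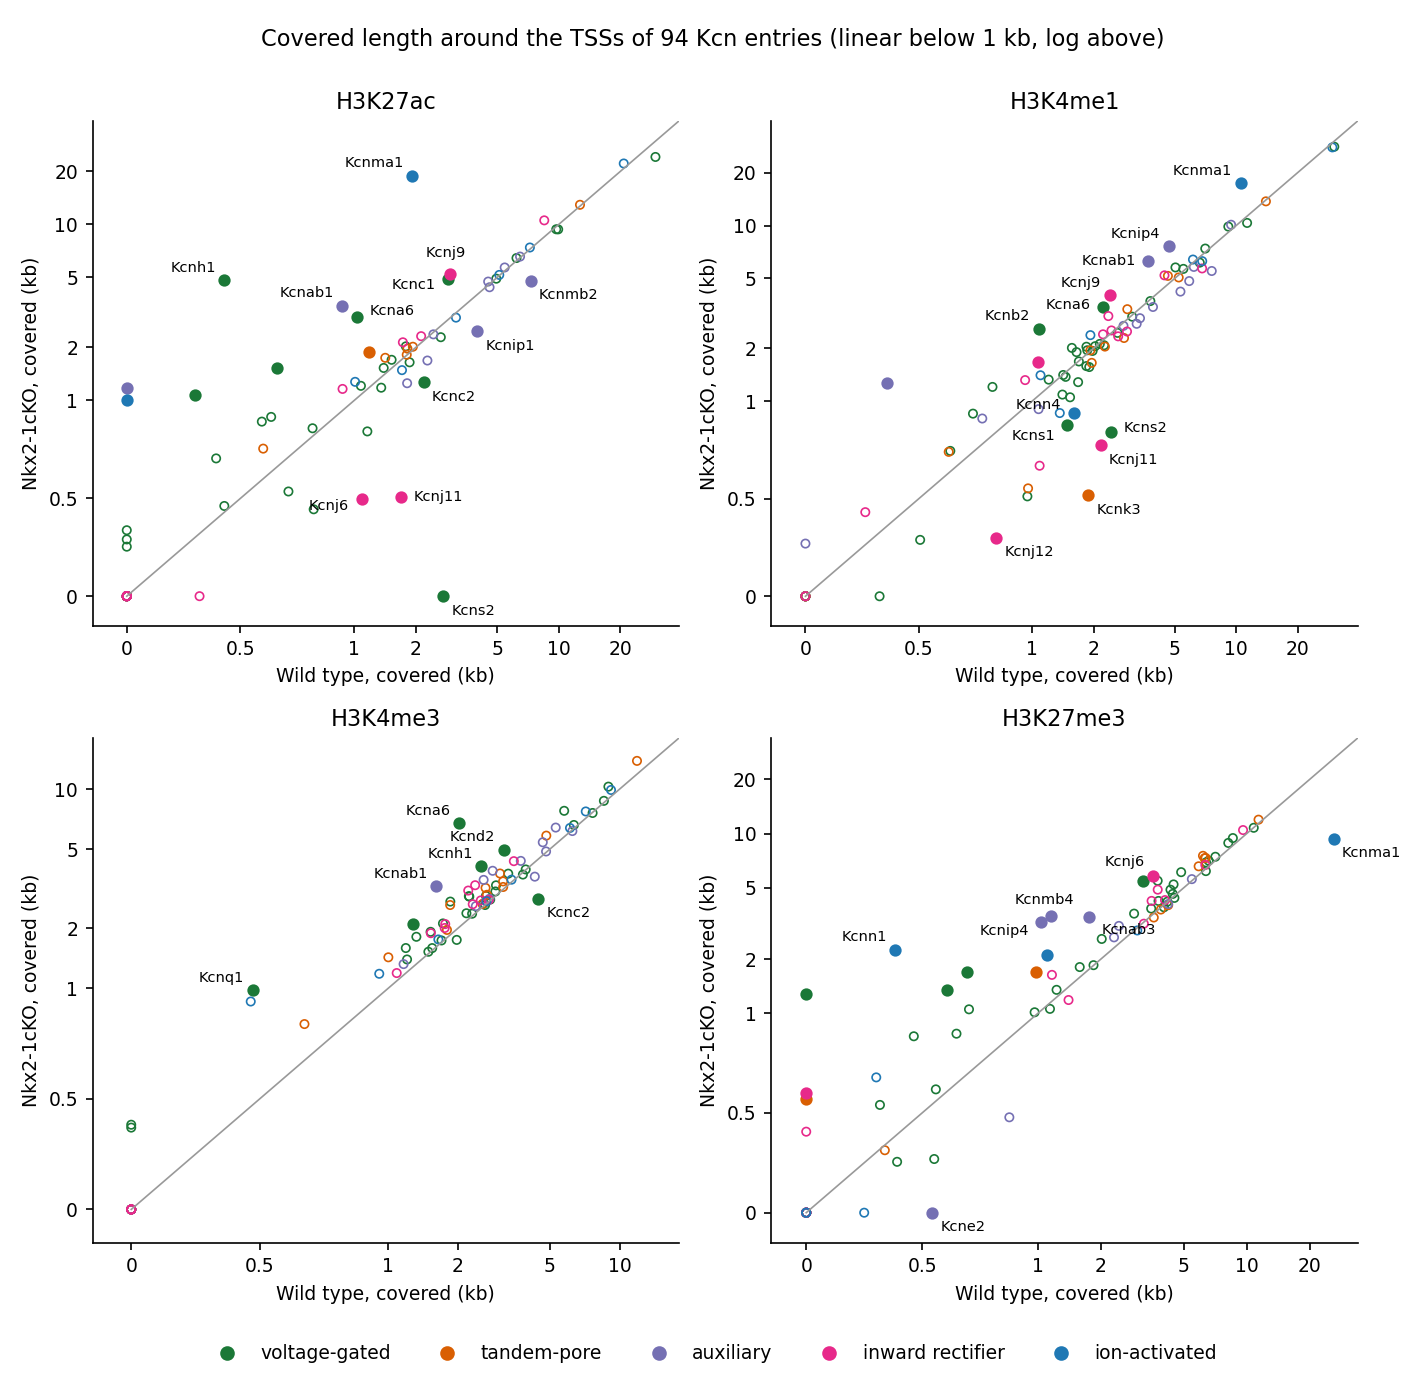
Covered kb per member in wild type (horizontal) and Nkx2-1cKO (vertical), 1 panel per mark, with axes linear below 1 kb and logarithmic above; each point is a Kcn gene, coloured by class, filled where it is past the limits of 1.5-fold and 0.5 kb and open where it is not. Most points lie near the diagonal, and Kcnma1 lies far above it for H3K27ac (1.92 and 18.9 kb) and below it for H3K27me3 (26.1 and 9.37 kb).

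Some members were called in 2 marks. The share of such joint calls over all genes was not computed, so they describe the members alone. H3K27ac and H3K4me1 were both higher at Kcna6, Kcnab1, Kcnip4, Kcnj9 and Kcnma1 and both lower at Kcnj11 and Kcns2. No member had them in opposite directions. With lists of equal length H3K4me1 was called higher at Kcnb2, Kcnj9 and Kcnmb3 alone, and H3K27ac was no longer called at Kcnj9. None of the joint rises of H3K27ac and H3K4me1 remained there, while the joint falls at Kcnj11 and Kcns2 did. H3K27ac and H3K4me3 were both higher at Kcna6, Kcnab1 and Kcnh1 and both lower at Kcnc2. H3K27ac and H3K27me3 took every combination but a joint fall: both higher at Kcnip4 and Kcnk5, H3K27ac higher with H3K27me3 lower at Kcnma1, and H3K27ac lower with H3K27me3 higher at Kcnj11 and Kcnj6. The plot of differences by member and mark lays these out.

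**Figure D3:**
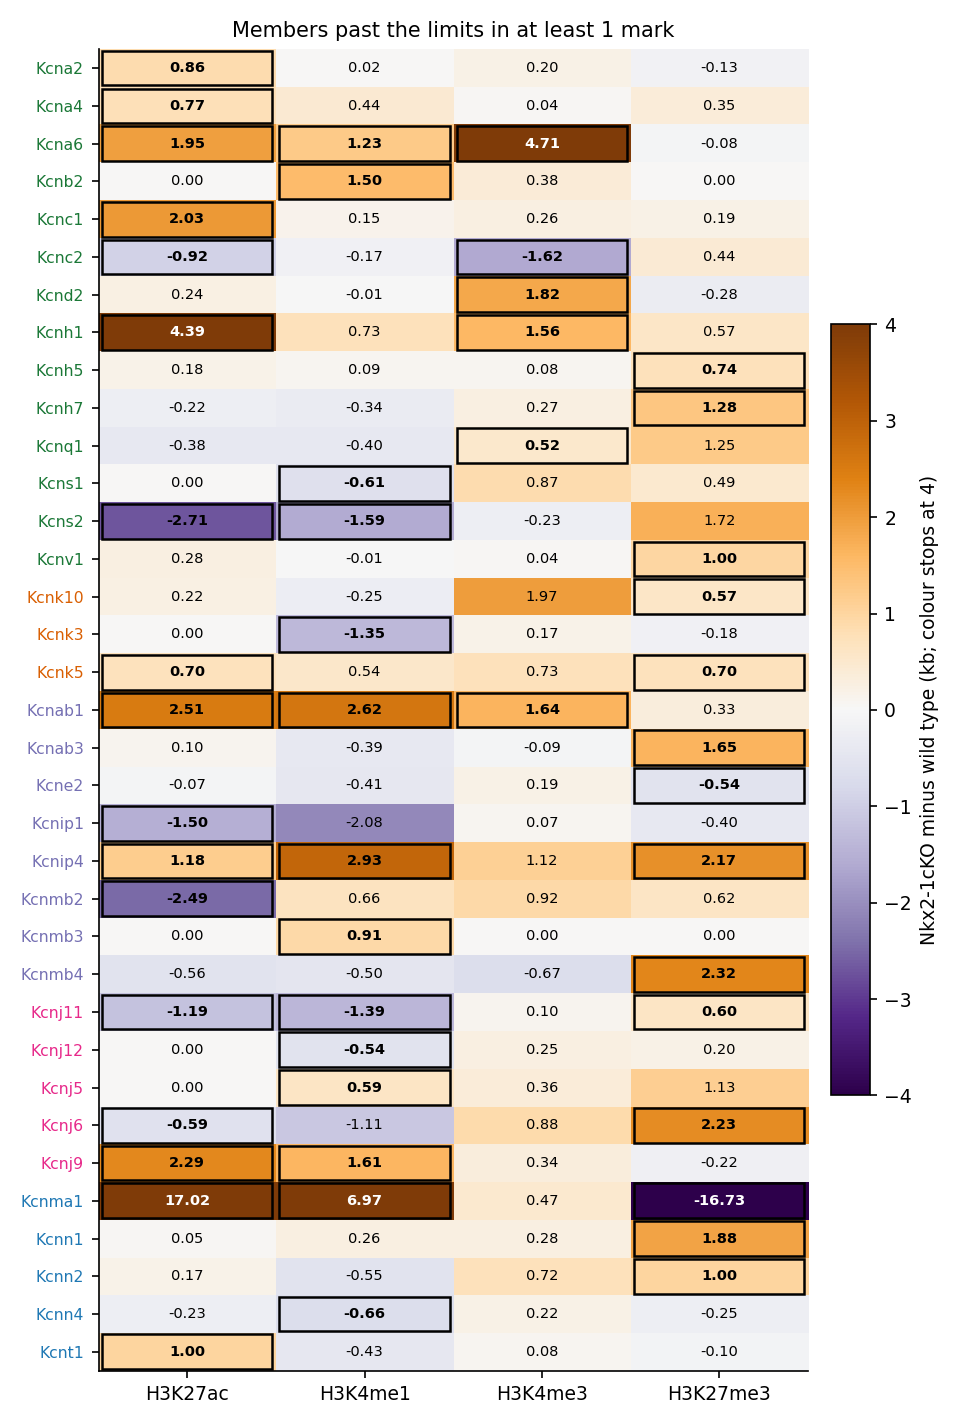
Difference in covered kb, mutant minus wild type, for 35 of the 37 members called changed in at least 1 mark (1 line each) and the 4 marks (columns); the colour scale stops at 4 kb in either direction, and boxed bold values are past the limits. Kcns2 and Kcnj11 are boxed as lower for both H3K27ac and H3K4me1, and most boxed values in the H3K27me3 column are positive.

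Among the voltage-gated genes, the clearest loss was at Kcns2, a silent subunit that forms no channel by itself and modifies Kcnb channels. Its H3K27ac coverage was 2.71 kb in wild type against 0 kb in the mutant: all 4 wild-type regions, including one of 1043 bases over the TSS (chr15:34767003-34768045, fold 3.56) and one farther upstream (chr15:34759058-34760065, fold 4.48), had no counterpart, although 2 mutant regions lay farther upstream than the 10 kb counted. H3K4me1 went from 2.44 to 0.843 kb. H3K27me3 was 3.74 kb and 5.46 kb, short of the fold limit, and H3K4me3 1.98 and 1.75 kb. The promoter thus held H3K4me3 and H3K27me3 in both genotypes and H3K27ac in wild type alone.

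Kcnh1, an ether-a-go-go channel, lay at the other end. H3K27ac covered 0.429 kb in wild type against 4.82 kb in the mutant, in 1 region and 7 regions, 6 of them without a wild-type counterpart. The 1 wild-type region lies in an intron and had its counterpart in the strongest mutant region (chr1:194136861-194137893, fold 8.79 against 4.37 in wild type). Another new region, of 823 bases and fold 4.10, lies at the first TSS. H3K4me3 coverage was 2.53 and 4.09 kb, and the promoter region grew from 1941 to 3265 bases.

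The Kcna genes encode the Shaker-type channels of axons and terminals. Kcna6 went from 1.03 to 2.98 kb of H3K27ac, from 2.22 to 3.44 kb of H3K4me1 and from 2.03 to 6.75 kb of H3K4me3, the largest H3K4me3 difference of any member. The region over 1 of its TSSs was 2032 bases in wild type and 2314 bases in the mutant, and 3 mutant regions of 473, 772 and 3187 bases had no wild-type counterpart. The longest (chr6:126683455-126686641, fold 8.72) lies inside the gene, 0.188 kb from another annotated TSS, and the 772-base region 1.22 kb upstream of a TSS. H3K27me3 at Kcna6 was 1.14 and 1.06 kb. Kcna2 had 0.660 and 1.52 kb of H3K27ac, and Kcna4 0.302 and 1.08 kb, in both cases in regions at or next to the TSS. The H3K27ac of the neighbouring Kcna3 was 6.21 and 6.44 kb, and Kcna1 had 0.594 and 0.892 kb. Over the subfamily, H3K27ac was called higher at 3 of 8 genes (37.5%, background 5.16%) and lower at none (background 1.9%). The Kcna genes were named after their values were seen.

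The Kcnc genes encode the fast delayed rectifiers of fast-spiking interneurons, and the promoters of Kcnc1, Kcnc2 and Kcnc4 held H3K4me3 and H3K27me3 in both genotypes. Kcnc1 and Kcnc2 were called in opposite directions for H3K27ac. Kcnc1 had 2.88 kb in wild type against 4.91 kb in the mutant, where 3 wild-type regions near a downstream start corresponded to a single mutant region of 2960 bases (fold 9.37). Kcnc2 had 2.19 and 1.27 kb, and its H3K4me3 went from 4.44 to 2.82 kb as 2 intronic regions of 333 and 779 bases had no counterpart and the promoter region shortened from 3329 to 2816 bases. It is the single member with H3K4me3 called lower. Kcnc4 (0 and 0.337 kb of H3K27ac) was within the limits.

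The A-type channel gene Kcnd3 had the longest H3K27ac and H3K4me1 coverage of any member in wild type, 29.7 and 30.3 kb over a 237 kb window, and 24.1 and 28.1 kb in the mutant, within the limits. Its paralogue Kcnd2 was called for H3K4me3 alone, with 3.15 and 4.97 kb. Kcnq1, the pore of the cardiac slow delayed rectifier, was called higher for H3K4me3 (0.473 and 0.991 kb), and its regions lie in an intron, 5.14 kb or more from a start. H3K27me3 was also called higher at Kcnv1, a silent subunit (0.692 and 1.69 kb), Kcnh5 (0.608 and 1.34 kb) and Kcnh7 (0 and 1.28 kb). H3K4me1 was called higher at the long entry of Kcnb2, a delayed rectifier (1.08 and 2.58 kb), and lower at Kcns1 (1.49 and 0.878 kb). The Kcns1 difference turned to 0.207 kb higher in the mutant with regions of −log10 p of at least 10.

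**Figure D4:**
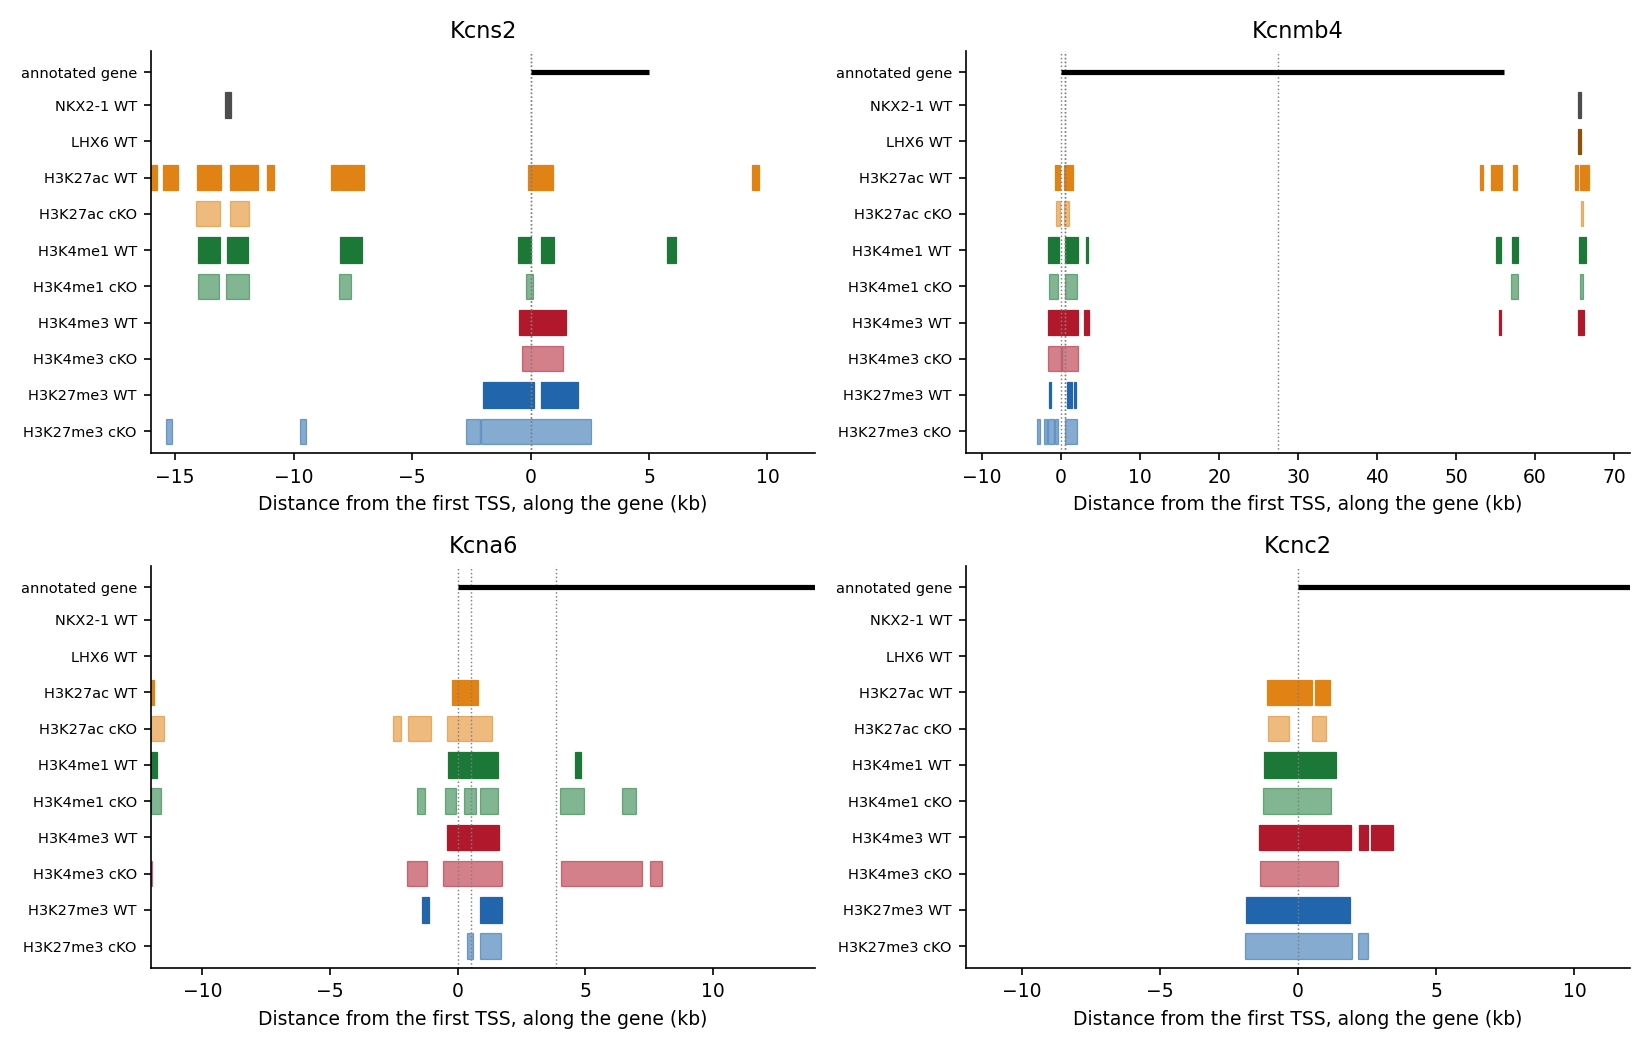
Regions of the 4 marks in wild type (solid) and Nkx2-1cKO (pale) at Kcns2, Kcnmb4, Kcna6 and Kcnc2, 1 panel each, with distance from the first TSS in kb on the horizontal axis. H3K27ac of the mutant at Kcns2 is empty within 10 kb of the TSS and has 2 regions farther upstream, around the NKX2-1 peak, while H3K27me3 at Kcnmb4 reaches farther in the mutant (1.15 and 3.47 kb covered), and H3K4me3 at Kcna6 has additional mutant regions.

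Auxiliary subunits change the gating, trafficking or calcium sensitivity of the pore-forming proteins. The beta subunit gene Kcnab1 was called higher for 3 marks: H3K27ac 0.948 and 3.46 kb, H3K4me1 3.70 and 6.32 kb, and H3K4me3 1.61 and 3.25 kb. The promoter region of its first TSS was present in both genotypes. A downstream start held H3K27ac (458 bases, fold 4.69) and H3K4me3 (chr3:64992051-64993140, 1090 bases, fold 12.2) in the mutant and neither in wild type, and 4 further mutant H3K27ac regions lay in introns. Kcnip4, a Kv channel-interacting protein that binds Kcnd channels, has the longest window (1062 kb) and was also called in 3 marks: H3K27ac 0 and 1.18 kb, H3K4me1 4.67 and 7.60 kb, and H3K27me3 1.04 and 3.21 kb. At its most upstream promoter H3K27ac was called in the mutant alone (332 bases, fold 4.22), and H3K27me3 went from a region of 1038 bases to one of 1558 bases. Its paralogue Kcnip1 went from 3.98 to 2.48 kb of H3K27ac, with 3 intronic wild-type regions lacking a counterpart; its window also holds Kcnmb1, and over the whole gene the fall was no longer called.

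Of the BK channel beta subunits, Kcnmb4, the neuronal form, went from 1.15 to 3.47 kb of H3K27me3. The 3 wild-type regions, 250 to 638 bases long, lie around its upstream TSS, and the mutant had 5 regions, the longest of 1537 bases (chr10:115908882-115910418, fold 5.52). H3K27ac there was 1.81 and 1.253 kb, below the limit. Kcnmb2 went from 7.28 to 4.79 kb of H3K27ac, in 13 and 8 regions; 7 of the 13 had no counterpart, and with regions of −log10 p of at least 10 the fall was no longer called. Its strongest region, in an intron, was kept (chr3:31965635-31967364, 1730 bases, fold 11.2 in wild type; 1377 bases, fold 11.4 in the mutant). Kcnab3 was called higher for H3K27me3 (1.76 and 3.41 kb), although 3 of its 4 mutant regions lie 7.29 kb or more from its starts and its window holds other genes. Kcnmb3 was called higher for H3K4me1 (0.359 and 1.27 kb) and Kcne2 lower for H3K27me3 (0.543 and 0 kb).

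Inward rectifiers hold the membrane near the potassium equilibrium potential. Kcnj11, the pore of the ATP-sensitive channel, lost coverage of both marks tied to enhancers: H3K27ac 1.70 and 0.507 kb, H3K4me1 2.17 and 0.775 kb. Its strongest H3K27ac region, upstream of the TSS, was 1067 bases (chr7:53357731-53358797, fold 6.20) in wild type and 507 bases (fold 3.17) in the mutant. H3K27me3 was 0 and 0.601 kb, in 2 short regions with folds of 3.04 and 2.76, 4.87 kb or more from the TSS.

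Among the G-protein-gated rectifiers, Kcnj9 was called higher for H3K27ac (2.94 and 5.23 kb) and H3K4me1 (2.39 and 4.01 kb), with all 5 wild-type H3K27ac regions overlapped in the mutant and 2 more added. Its window overlaps that of Kcnj10, whose own H3K27ac was 8.49 and 10.5 kb. Kcnj6, a G-protein-gated partner of Kcnj9, was called the other way for H3K27ac (1.09 and 0.496 kb), through 2 short intronic regions, and higher for H3K27me3 (3.55 and 5.78 kb), where 3 wild-type regions corresponded to 1 continuous mutant region of 5778 bases. The H3K27ac fall of Kcnj6 was no longer called with regions of −log10 p of at least 10, and over the whole gene it turned to 0.119 kb higher in the mutant; the rise of Kcnj9 was not called over its whole gene either. Kcnj3 had 0.949 and 1.16 kb of H3K27ac and 3.50 and 4.21 kb of H3K27me3, within the limits. H3K4me1 was called higher at Kcnj5 (1.07 and 1.67 kb) and lower at Kcnj12 (0.841 and 0.301 kb).

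Of the 14 tandem-pore genes, which encode leak channels, 1 was called for H3K27ac in either direction (7.14%, background 7.05%): Kcnk5, with 1.18 and 1.88 kb, and it was also called higher for H3K27me3 (0.989 and 1.69 kb). Kcnk10 had the longest H3K4me3 coverage of any member, 11.9 kb in wild type against 13.9 kb in the mutant, and 12.7 and 12.9 kb of H3K27ac; its H3K27me3 call (0 and 0.572 kb) rests on the short regions given above. Kcnk3, an acid-sensitive channel, went from 1.87 to 0.520 kb of H3K4me1, with 3 of 4 wild-type regions lacking a counterpart and no H3K27ac in either genotype. Kcnk4 carried 11.4 and 11.9 kb of H3K27me3, second in length to Kcnma1 in wild type, followed by Kcna7 (10.8 and 10.8 kb), Kcnj4 (9.595 and 10.5 kb) and Kcnh3 (8.57 and 9.43 kb). These long H3K27me3 stretches differed little between the genotypes.

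Among the ion-activated channels, Kcnma1, the pore of the BK channel, had the largest differences of any member in H3K27ac, H3K4me1 and H3K27me3. It lies on the minus strand at chr14:24117983-24622526, has 3 annotated TSSs and a window of 459 kb. H3K27ac covered 1.92 kb in wild type against 18.9 kb in the mutant, in 4 and 26 regions; 23 of the 26 had no wild-type counterpart. H3K4me1 covered 10.5 and 17.5 kb, in 16 and 28 regions. H3K27me3 went the other way, from 26.1 to 9.37 kb, in 27 and 13 regions, and 16 of the 27 had no mutant counterpart. H3K4me3 covered 0.465 and 0.940 kb.

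Most of these differences lay in a single stretch around the most downstream annotated TSS (chr14:24173117-24223117). There H3K27ac went from 1.92 to 18.3 kb, H3K4me1 from 2.98 to 9.58 kb and H3K27me3 from 16.6 to 7.01 kb. The strongest mutant H3K27ac region overlaps an exon 22.2 kb upstream of that TSS (chr14:24205283-24206867, fold 12.3); its wild-type counterpart had 304 bases and fold 4.02. A second mutant region of 1993 bases (fold 9.26) lies over the TSS itself, where wild type had a 290-base H3K27me3 region (fold 2.73) and no H3K27ac. Around the middle TSS (chr14:24385923-24420923) H3K27me3 went from 9.03 to 2.37 kb, with 0 and 0.651 kb of H3K27ac and, opposite to the gene as a whole, 2.24 and 1.09 kb of H3K4me1, and a 401-base H3K4me3 region (fold 5.01) was called in the mutant. Around the first annotated TSS no mark had a region.

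**Figure D5:**
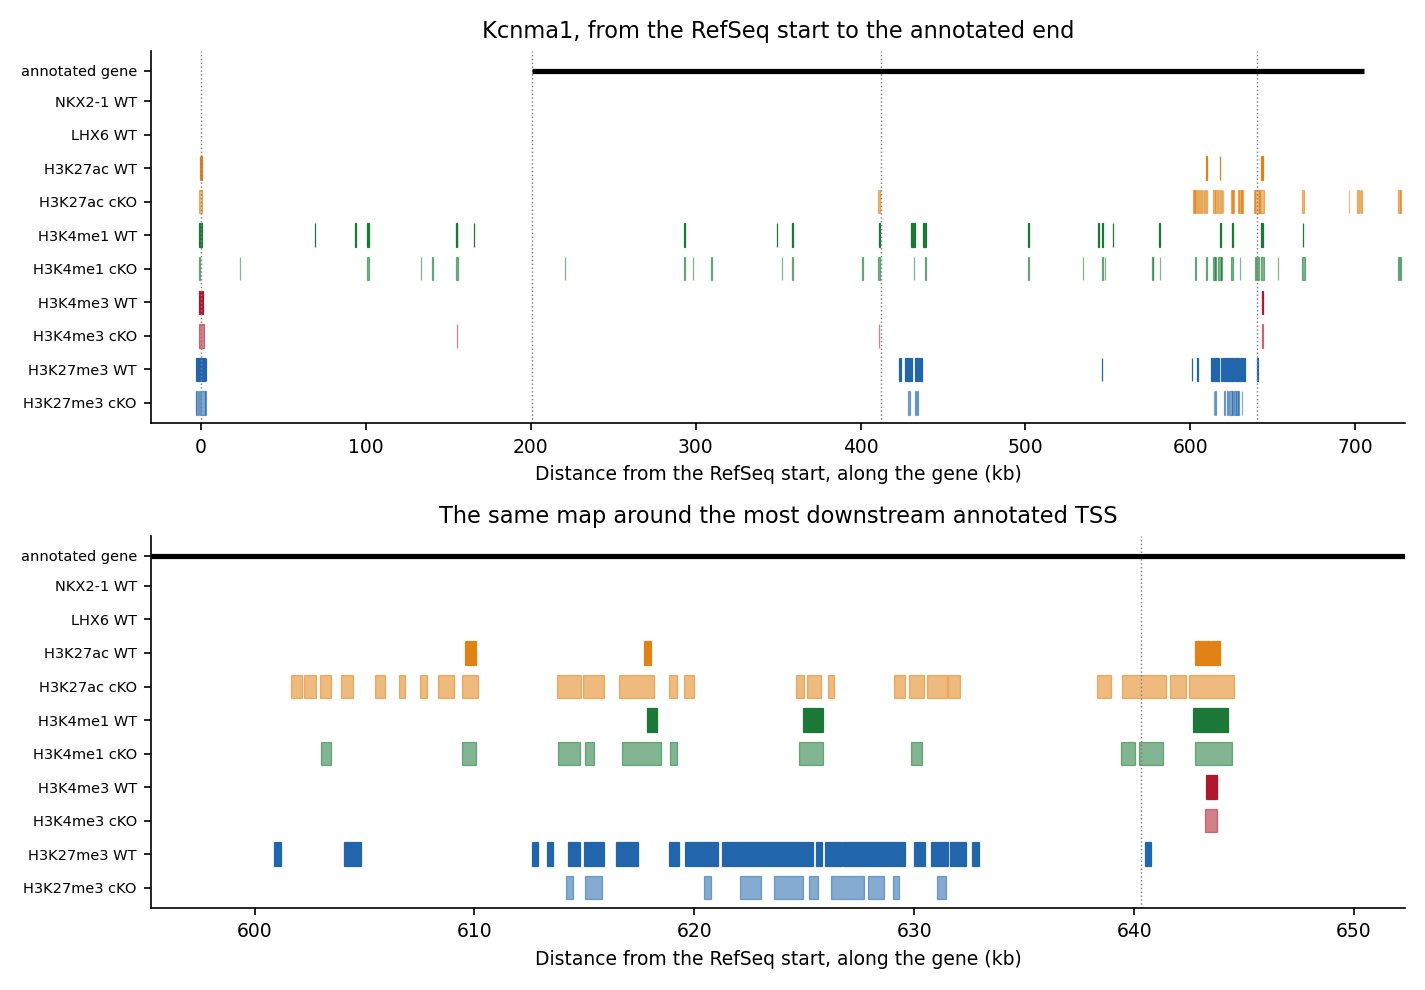
Regions of the 4 marks along Kcnma1 in wild type and Nkx2-1cKO, with distance from the RefSeq start in kb on the horizontal axis and dotted lines at the RefSeq start and the annotated TSSs; the lower panel enlarges the stretch around the most downstream TSS. In that stretch H3K27ac covers 1.92 kb (wild type) and 18.3 kb (mutant), and H3K27me3 16.6 and 7.01 kb.

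RefSeq places the start of Kcnma1 201 kb farther upstream than the annotation used here. At that start, within 10 kb to each side, 3 marks were within the limits: H3K4me3 covered 2.52 and 2.91 kb (folds 25.96 and 30.5), H3K27me3 4.83 and 4.89 kb, and H3K27ac 1.29 and 1.78 kb. H3K4me1 there was 1.06 and 0.477 kb. The promoter of the long transcripts carried both marks in both genotypes, and the larger differences were internal to the gene. From the RefSeq start to the annotated end, with 10 kb at each side (725 kb), H3K27ac covered 3.21 and 24.5 kb and H3K27me3 30.9 and 14.3 kb. No NKX2-1 or LHX6 peak lay within 50 kb of an annotated TSS. The 250 bases before the RefSeq start (RefSeq, GRCm38.p6, matched exactly to chr14:24823428-24823677 of mm9, minus strand) are shown because this CpG-rich stretch lies inside an H3K4me3 region in both genotypes; capitals mark CG.

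Kcnma1: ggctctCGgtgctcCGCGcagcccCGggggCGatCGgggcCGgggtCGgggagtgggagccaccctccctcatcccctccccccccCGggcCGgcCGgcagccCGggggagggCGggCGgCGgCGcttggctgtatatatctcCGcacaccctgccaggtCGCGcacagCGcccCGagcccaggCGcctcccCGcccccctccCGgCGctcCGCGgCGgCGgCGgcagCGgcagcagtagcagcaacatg

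It holds 31 CG; the median over 32851 RefSeq promoter sequences was 6, and 5.19% of them hold at least as many.

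Kcnma1, with the largest differences in H3K27ac, H3K4me1 and H3K27me3, weighs on the sums of these marks. Over all 94 members the coverage in the mutant divided by that in wild type was 1.11 for H3K27ac (all genes 1.08), 1.00 for H3K4me1 (1.03), 1.15 for H3K4me3 (1.13) and 1.08 for H3K27me3 (1.21). Without Kcnma1 the ratios were 1.03, 0.981, 1.15 and 1.16. In wild type and the mutant, members held 214 and 234 separate H3K27ac regions with a mean fold of 5.67 and 6.02. H3K4me1 had 360 and 382 regions (4.74 and 4.64), H3K4me3 163 and 176 (16.7 and 19.6) and H3K27me3 172 and 176 (5.78 and 6.34).

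The small-conductance calcium-activated channels Kcnn1 to Kcnn3 produce the afterhyperpolarization. Kcnn1 went from 0.383 to 2.26 kb and Kcnn2 from 1.098 to 2.103 kb of H3K27me3, with H3K27ac of 5.12 and 5.16 kb and of 7.22 and 7.39 kb. With lists of equal length the Kcnn1 difference turned to -0.383 kb, and with 5 kb on each side of the starts it was 0.064 kb and not called. The Kcnn1 regions lie upstream of the annotated TSS, around the RefSeq start 6.25 kb away. Kcnn3 had long coverage of H3K27ac (20.8 and 22.2 kb) and H3K4me1 (29.6 and 27.9 kb) in both genotypes. The sodium-activated channel Kcnt1 had 0 and 1.00 kb of H3K27ac in 2 mutant regions with folds of 3.40 and 3.29. Kcnn4 was called lower for H3K4me1 (1.60 and 0.939 kb).

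At the level of single regions, the share without a counterpart was higher beyond 2.5 kb from a TSS than within it for each of the 4 marks in both genotypes, among members as among all autosomal regions. Of the 214 wild-type H3K27ac regions in the windows of members, 36 (16.8%) had no overlapping mutant region, against 19.6% of all autosomal regions. The share was 4.12% for those within 2.5 kb of a TSS and 27.4% for those farther away (all regions 6.12% and 25.9%). Here and below, distance in members is to the member's own TSSs. In all regions it is to the TSSs of any autosomal protein-coding gene, so the near and far shares are not like for like. Of the mutant H3K27ac regions, counted per member, 70 of 235 (29.8%; all regions 29.6%) had no wild-type region, 22.0% of the nearer and 35.6% of the farther ones (all regions 11.4% and 37.3%). For H3K4me3 the shares were 4.91% of 163 wild-type and 17.6% of 176 mutant regions (all regions 3.72% and 28.2%), and for H3K27me3 19.2% of 172 and 31.8% of 176 (all regions 15.8% and 45.8%). Of the 56 mutant H3K27me3 regions without counterpart, 29 lay within 2.5 kb of a TSS (23.6% of such regions; all regions 28.9%) and 27 farther away (50.9%; all regions 54.7%). In wild type the H3K27me3 shares were 7.76% of 116 nearer regions and 42.9% of 56 farther ones (all regions 6.21% and 21.8%).

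Binding of the factors within 50 kb of potassium channel genes was about as common as near other genes. Of the members, 24 had an NKX2-1 peak no farther than 50 kb from a TSS (25.5%, 17.1 to 35.6%, background 28.9%). Within 2.5 kb, 4 members had one (4.26%), fewer than the background of 8.34%. LHX6 peaks were found within 50 kb of 4 members (4.26%, 1.17 to 10.5%, background 2.99%) and within 2.5 kb of none (background 0.402%). The 24 members had 37 NKX2-1 peaks between them, since Kcna2 and Kcna10 share 1; for 20 of the peaks, near 15 members, the nearest TSS of any gene was the member's own. None of the peaks was present in all 10 lists.

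In wild-type MGE, 29 of the 37 NKX2-1 peaks overlapped H3K27ac, 29 H3K4me1, 26 H3K4me3 and 3 H3K27me3. The mutant counts at the same positions were 29, 26, 25 and 3. The highest −log10 p (82.6, fold 11.4) belonged to a peak upstream of Kcnk6 that overlaps the TSS of Yif1b. Next came a peak 27.2 kb downstream of the TSS of Kcnc4 (chr3:107234136-107234586, 61.4, fold 9.49), a peak 20.5 kb downstream of that of Kcna5 (32.2), a peak over the TSS of Kcnn3 (31.3) and a peak 43.7 kb upstream of Kcnd3 (28.0). Those near Kcnab3, Kcnh4 and Kcnk18 lie closer to Chd3, Rab5c and Vax1. The peaks of Kcnk13 and Kcnj6 (21.7 each) have the member as the nearest gene. All of these were on H3K27ac in both genotypes except the Kcna5 peak (mutant alone) and the Kcnj6 peak (neither).

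Changes in both directions of H3K27ac were found with and without an NKX2-1 peak. Of the 24 members with a peak, H3K27ac was higher at 2 and lower at 2; of the 70 without, it was higher at 9 and lower at 4. For H3K4me1 the counts were 1 and 2 with a peak and 7 and 4 without, and for H3K4me3 1 and 0 with a peak and 5 and 1 without. H3K27me3 was higher at 6 and lower at none of the members with a peak, and higher at 7 and lower at 2 of those without. The same split over all genes was not computed, and a link between peaks and calls was not tested.

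Both Kcns2, which had no H3K27ac region left in its window, and Kcnk13, a halothane-inhibited tandem-pore channel, have an NKX2-1 peak upstream. The Kcns2 peak (chr15:34754194-34754465, fold 4.64) lies 12.6 kb upstream of the TSS, outside the window, and was on H3K27ac and H3K4me1 in both genotypes. The Kcnk13 peak (chr12:101196255-101196708, fold 5.17) lies 6.00 kb upstream and overlapped H3K27ac, H3K4me1 and H3K4me3 in both. The 200 bases around both summits (mm9, plus strand) are shown as the upstream sites of a member without H3K27ac in its window in the mutant and of a member whose coverage was within the limits (Kcnk13, 1.81 and 1.82 kb of H3K27ac). Capitals mark the core of NK2 factors, searched on both strands as CACTTGA or CACTCAA; the former contains CACTTG, a form of the E-box CANNTG.

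Kcns2: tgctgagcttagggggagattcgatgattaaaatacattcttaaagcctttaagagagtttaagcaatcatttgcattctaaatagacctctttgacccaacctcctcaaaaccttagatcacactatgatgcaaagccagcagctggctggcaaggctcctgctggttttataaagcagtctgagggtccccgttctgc

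Kcnk13: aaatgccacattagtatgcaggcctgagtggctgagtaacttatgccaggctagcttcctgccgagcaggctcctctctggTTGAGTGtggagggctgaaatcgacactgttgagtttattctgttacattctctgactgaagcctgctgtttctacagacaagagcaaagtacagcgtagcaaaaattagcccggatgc

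The Kcnk13 window (chr12:101196337-101196536) holds 1 core, on the minus strand, and the Kcns2 window (chr15:34754239-34754438) none. Over the 37 peaks near members 8 hold this core, and 21.5% of all 5613 autosomal NKX2-1 peaks do in windows of the same length.

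The 4 LHX6 peaks all have the member as the nearest gene, and 2 of them, at Kcnmb4 and Kcnmb2, were on H3K27ac in wild type and none in the mutant. Over all autosomes, 647 LHX6 peaks were on wild-type H3K27ac, and 27.2% of these were not on it in the mutant. H3K4me1 was at 3 in wild type and 1 in the mutant. The strongest (chr10:115845135-115845441, fold 6.05, −log10 p 23.2) lies past the 3′ end of Kcnmb4, 38.0 kb from its nearest TSS, and overlaps an NKX2-1 peak (fold 4.49). It was on H3K27ac, H3K4me1 and H3K4me3 in wild type and on H3K4me1 alone in the mutant, where a short H3K27ac region lay beside the peak without overlapping it. The Kcnmb2 peak (chr3:32046749-32047068, fold 4.50) lies in an intron 7.97 kb upstream of the nearest TSS, on H3K27ac and H3K4me1 in wild type and on no mark in the mutant; the H3K27ac region there (chr3:32046432-32046832, fold 5.05) is 1 of the 7 without counterpart. The Kcnj6 peak (chr16:95034293-95034542, fold 3.60), in an intron, overlaps an NKX2-1 peak and H3K27me3 in both genotypes. The Kcnn3 peak (chr3:89441575-89441824, fold 3.47), also in an intron, is on no mark. The last pair fall below a −log10 p of 10.

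The 200 bases around the summits at Kcnmb4 (chr10:115845188-115845387) and Kcnmb2 (chr3:32046809-32047008) are shown, plus strand of mm9, as the sites at 2 BK beta subunit genes where H3K27ac was called in wild type alone. Capitals mark the NK2 core and the core of LIM-homeodomain factors, searched on both strands as TAATTA or TAATGA, letters that many homeodomain proteins share.

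Kcnmb4: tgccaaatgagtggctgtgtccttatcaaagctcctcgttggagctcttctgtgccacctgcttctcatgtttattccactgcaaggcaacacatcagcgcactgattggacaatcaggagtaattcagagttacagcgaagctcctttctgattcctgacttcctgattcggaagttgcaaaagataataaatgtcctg

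Kcnmb2: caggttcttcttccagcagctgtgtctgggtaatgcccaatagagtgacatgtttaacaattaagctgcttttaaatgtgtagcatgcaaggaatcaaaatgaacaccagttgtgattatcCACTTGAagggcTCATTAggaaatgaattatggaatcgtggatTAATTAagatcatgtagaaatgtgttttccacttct

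The Kcnmb2 window holds 1 NK2 core and 2 LIM cores, and the Kcnmb4 window none of these letters. A LIM core is in 2 of the 4 windows and in 42.4% of all 1589 autosomal LHX6 peaks, and an NK2 core in 1 of 4 and in 8.56%. A match is a description of the letters.

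Of the 44 sodium, calcium and HCN channel genes, H3K27ac was higher at 5 (11.4%) and lower at 1 (2.27%). Potassium channel genes had 11.7% and 6.38% (background 5.16% and 1.9%). H3K4me1 was higher at 3 (6.82%) and lower at 2 (4.55%), against 8.51% and 6.38% (background 3.83% and 2.65%). H3K4me3 was higher at 4 (9.09%) and lower at 1 (2.27%), against 6.38% and 1.06% (background 4.02% and 0.145%). H3K27me3 was higher at 8 (18.2%) and lower at none, against 13.8% and 2.13% (background 8.05% and 0.434%). These differences in share were not tested. The sodium channel gene Scn3a had 2.098 and 7.33 kb of H3K27ac, and the T-type calcium channel gene Cacna1h 3.002 and 9.05 kb of H3K27me3. Of 7 genes for partners of potassium channels (Dpp6, Dpp10, Amigo1 and 4 Lrrc genes), H3K27ac was higher at 1 (14.3%, background 5.16%). H3K4me1 was higher at 1 and lower at 1 (14.3% each, background 3.83% and 2.65%), and H3K27me3 higher at 2 (28.6%, background 8.05%). Dpp6, which joins Kcnd channels, had 17.1 and 26.4 kb of H3K4me1.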

How the data were processed

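ChIP-seq peak lists were analysed for 8 mark and 2 factor libraries. Per the file headers, the authors called peaks with MACS 2.1.0.20140616 on merged alignments at a p-value threshold of 1.00e-05, without local background, with tags extended to 250 bases, summits split, 1 tag kept per position and the larger data set scaled to the smaller. Per the submitters' processing notes, CASAVA 1.8.2, bcl2fastq 1.8.4 and BWA 0.6.2 were used, with build mm9. The deposited lists give pileup (a signal of tag coverage), the −log10 p and the fold enrichment over input, a ratio; pileup and the deposited q-values, which the headers say were not calculated, enter no result.

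Summits of 1 interval were joined into a region that keeps its strongest summit, and chromosomes 1 to 19 were kept for members. Genes and TSSs came from GENCODE M1. Overlap means 1 base or more. The tools were Python 3.11.15 with numpy 2.4.6, pandas 2.3.3, scipy 1.17.1 and matplotlib 3.10.9, and the code was tested on simulated lists. Intervals are exact Clopper-Pearson at 95%. With 1 library per group no test between genotypes was made and no p-value is given; a difference may be technical. Backgrounds are over all 21418 genes.

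Named were the 6 largest rises and falls in kb per mark, members whose promoter state differs, those with an LHX6 peak, the 10 with the strongest NKX2-1 peak and the 5 with the longest wild-type coverage per mark; Kcna and Kcnc genes, other members within the limits and the remaining called members were named after their values were seen. Some members enter the counts but are not reported here by name. The members and lists were chosen with earlier results of these data known. Alternatives were other windows, distances, limits and thresholds, lists of equal length, and, chosen after seeing the data, whole gene windows and added RefSeq starts.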

Additional observations from a re-analysis of the deposited data

How the results depend on the processing

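No paired analysis was possible because each antibody and genotype has 1 library. Of 106 alternatives of counts, 82 stayed within 1.5 times the reported count and 24 did not. With limits of 2-fold and 1 kb, higher and lower members numbered 6 and 2 for H3K27ac, 1 and 3 for H3K4me1, 2 and 0 for H3K4me3 and 4 and 1 for H3K27me3. With lists of equal covered length they numbered 3 and 12 for H3K4me1, 2 and 4 for H3K4me3 and 6 and 10 for H3K27me3. With a −log10 p of at least 10, H3K4me1 was higher at 4 and H3K27me3 lower at 1, H3K4me3 alone marked 17 promoters in wild type and 14 in the mutant, H3K27me3 alone 1 and 1, and LHX6 peaks lay near 2 members. Over whole annotated genes H3K4me3 was lower at 0. Within 100 kb, 38 members had an NKX2-1 and 7 an LHX6 peak. Of 39 values of named members, 11 kept their call under all 7 alternatives, among them H3K27ac and H3K27me3 at Kcnma1 and H3K27ac at Kcns2, Kcnh1, Kcnab1, Kcna6 and Kcnj11. Of 273 alternatives of these values, 69 lost the call and 3 changed direction: Kcnj6 H3K27ac was 0.119 kb higher in the mutant over the whole gene, Kcns1 H3K4me1 0.207 kb higher with the stricter threshold, and Kcnn1 H3K27me3 differed by -0.383 kb with lists of equal length. The cause of these shifts was not tested. The lowered H3K27ac of Kcnmb2 and Kcnj6 was no longer called with the stricter threshold, nor that of Kcnip1 and Kcnj6 over whole genes. The effect of depth was not tested. Filtered tags in the mutant and wild type were 55.9 and 57.3 M for H3K27ac and 69.0 and 59.7 M for H3K4me1. They were 26.8 and 28.8 M for H3K4me3 and 46.7 and 50.2 M for H3K27me3. Filtered control tags were 39.0 M in the mutant and 63.2 M in wild type for H3K4me3, and 52.6 and 54.1 M for the other marks.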
